A study of Mus musculus with 2 samples.

Results

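The cells described here are interneurons of the embryonic mouse cortex with a secure *Sst* signal, termed confident *Sst* cells. They were chosen by their counts of unique molecular identifiers (UMIs, 1 per captured RNA molecule). A cell needed at least 2 UMIs of *Sst*, at least 1 of *Lhx6*, at least 1 of *Gad1* or *Gad2*, and none of *Neurod6*, *Mki67* or *Top2a*. Of 16213 cells with 1500 to 60000 UMIs and under 10% mitochondrial UMIs, 83 met this rule, 39 of 5966 in replicate 1 and 44 of 10247 in replicate 2. Both replicates are wild-type (WT) control embryos of an *Eomes-Cre* line, named EomesDot in the labels, and C57BL/6J is the strain named for cortices of this age. The cerebral cortex was taken at embryonic day (E) 16.5 and dissociated with papain, and no sort is described. There was no mutant or treated group, so every comparison lies between groups of cells of the same 2 libraries.

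*Sst* encodes somatostatin, an inhibitory neuropeptide that marks one of the main classes of cortical GABAergic interneurons. SST+ cortical interneurons (cINs) are born in the medial ganglionic eminence (MGE) under *Nkx2-1*, which switches on *Lhx6*, and they then migrate tangentially into the cortex with *Sox6* and *Satb1* acting in their maturation. Many switch on *Sst* well before they reach their final layer. In the adult, they include Martinotti cells, non-Martinotti cells and long-range projecting cells with *Nos1* and *Chodl*.

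*Sst* (ENSMUSG00000004366) lies on the minus strand of chromosome 16, from 23889573 to 23891342 on GRCm38. *Npy* (ENSMUSG00000029819), which encodes the neuropeptide Y precursor, lies on the plus strand of chromosome 6 from 49822710 to 49829507. The promoters of these neuropeptide genes are shown because *Sst* defines the cells and *Npy* was the neuropeptide gene that set them apart from their *Sst*-free counterparts. They run from 250 bases before to 50 bases after the start site and were read from RefSeq on GRCm38.p6, at chr16:23890795-23891094 and chr6:49822460-49822759. The RefSeq record of *Sst* reaches further upstream than the start site used for this window. Capitals mark the letters TGACGTCA, the cAMP response element, which reads the same on both strands.

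Sst: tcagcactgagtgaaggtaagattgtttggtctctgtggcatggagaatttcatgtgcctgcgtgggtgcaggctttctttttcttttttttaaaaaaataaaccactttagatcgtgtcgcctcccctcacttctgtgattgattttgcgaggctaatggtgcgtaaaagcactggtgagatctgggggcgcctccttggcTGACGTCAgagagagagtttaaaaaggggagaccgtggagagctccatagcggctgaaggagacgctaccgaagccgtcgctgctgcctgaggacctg

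Npy: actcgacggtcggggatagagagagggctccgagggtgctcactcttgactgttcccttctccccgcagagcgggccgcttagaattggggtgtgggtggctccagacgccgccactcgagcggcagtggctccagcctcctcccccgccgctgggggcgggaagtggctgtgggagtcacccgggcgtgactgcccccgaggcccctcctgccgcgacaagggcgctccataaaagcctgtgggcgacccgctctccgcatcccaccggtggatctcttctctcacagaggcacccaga

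The *Sst* window held 1 match, whose last base lay 41 bases upstream of the start, and the *Npy* window held 0 matches. The element was in 1.79% of all promoters of this length (588 of 32851) and in at least 1 promoter of 2.03% of genes (549 of 27025). Of the 81 genes that were higher in confident *Sst* cells than in cells with 0 *Sst* UMIs, 58 had a promoter on record and 2 of these held the element.

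The share of confident *Sst* cells was 0.654% of the cells in replicate 1 (exact 95% interval 0.465 to 0.893) and 0.429% in replicate 2 (0.312 to 0.576), a mean of 0.542% ± 0.159 (SD, n = 2). Within the *Lhx6*-positive, *Gad1*- or *Gad2*-positive, non-cycling cells they made up 11.4% (39 of 342) and 10.3% (44 of 428). Intervals cover counting error only. The same 2-UMI limit was reached by 0.547% (12 of 2193) and 0.416% (15 of 3604) of excitatory cells, which had at least 2 *Neurod6* UMIs, no *Gad1* or *Gad2* and a median depth of 7462 and 6208 UMIs. The *Lhx6*-positive cells were shallower, at medians of 3638.5 and 4089 UMIs. After every cell was thinned to 1500 UMIs, 2 or more *Sst* UMIs remained in 6.14% and 5.14% of the *Lhx6*-positive cells and 0.0912% and 0.111% of the excitatory cells. A count of 2 *Sst* UMIs was thus found far more often in these interneurons than in cells that should lack the gene, at equal depth in both libraries. At 10 or more *Sst* UMIs, excitatory cells gave 0 of 2193 and 1 of 3604 cells, and *Lhx6*-positive cells 2.92% and 3.74%.

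The rule left out more cells with *Sst* than it kept. Of 110 cells with at least 2 *Sst* UMIs in replicate 1, 39 met the rest of the rule. Of 148 in replicate 2, 44 did. The lack of an *Lhx6* UMI was the only failed criterion in 20 and 33 cells, and a *Neurod6* UMI was the only one in 8 and 12. The confident *Sst* cells held 42.2% of the *Sst* UMIs of all cells in replicate 1 and 31.5% in replicate 2.

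*Sst* itself, which chose the cells, spanned a wide range. The lowest, median and highest counts were 2, 3 and 148 UMIs in replicate 1 and 2, 6 and 164 UMIs in replicate 2. Over both libraries 21 cells had 2 UMIs, 20 had 3, 5 had 4 or 5, and 11 had 6 to 9. A further 7 had 10 to 19, 15 had 20 to 49 and 4 had 50 or more. Just outside the rule were 72 cells with 1 *Sst* UMI that met all other criteria. *Sst* made up 2.96% of all UMIs in the cell with the highest rate, a cell of 4936 UMIs. As a sum over the cells, *Sst* stood at 3351 UMIs per 1000000 UMIs (CPM) in replicate 1 and 2654 CPM in replicate 2, a mean of 3003 CPM ± 493 (SD, n = 2).

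**Figure D1:**
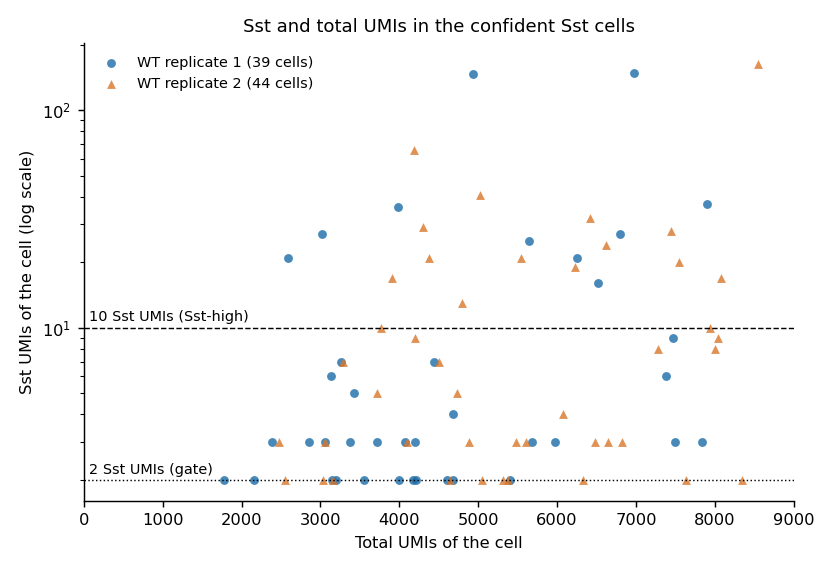
Each point is 1 of the 83 confident *Sst* cells, with its total UMIs on the x axis and its *Sst* UMIs on a log y axis; circles are WT replicate 1 and triangles WT replicate 2. Cells with 10 or more *Sst* UMIs (above the dashed line) occurred from 2589 to 8542 total UMIs, and the 3 cells with over 100 *Sst* UMIs came from both libraries.

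The confident *Sst* cells were split at 10 *Sst* UMIs into 57 *Sst*-low cells (29 and 28) and 26 *Sst*-high cells (10 and 16). *Sst*-high cells were also deeper, at medians of 5946 and 5887.5 UMIs against 4070 and 5178 UMIs. No cell barcode was shared between the libraries within the 83 cells, while 40 were shared over all barcodes. The 2 libraries differed in mitochondrial UMIs in these cells, at medians of 7.12% in replicate 1 and 3.69% in replicate 2. With a limit of 5% only 9 cells of replicate 1 and 32 of replicate 2 would remain. The highest doublet scores of each library included 6 confident *Sst* cells, all 6 of them *Sst*-high.

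The cells were checked against genes that the rule did not use. *Sox6*, a transcription factor of MGE interneuron maturation, was detected in 92.3% and 93.2% of the cells, against 22.1% and 30.4% of the CGE-type cells described further on. *Erbb4*, the neuregulin receptor of migrating interneurons, was detected in 97.4% and 97.7%, and *Nrxn3*, a presynaptic adhesion molecule, in 97.4% and 100%. CGE-type cells held these at like shares of 94.2% and 95.5% and of 98.8% and 96.4%. *Nkx2-1*, which cortical interneurons shut off as they leave the MGE, was detected in 5.13% and 6.82%. The markers given for these cells beside *Sst* and *Lhx6* were detected in few of them: *Grin3a* in 25.6% and 18.2%, and *Cdh9* in 25.6% and 6.82%. Of 8 excitatory neuron markers, *Neurod6* (by the rule), *Slc17a6* and *Slc17a7* were among those at 0. The whole list summed to 22.2 and 20.7 CPM, against 2865 and 2891 CPM in excitatory cells. Oligodendrocyte precursor markers were at 0. The list of caudal ganglionic eminence (CGE) markers differed between the libraries, at 1039 CPM in replicate 1 and 203 CPM in replicate 2. In replicate 1 most of this was *Adarb2*, which 12 of 39 cells of replicate 1 and 1 of 44 cells of replicate 2 held.

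To ask what set confident *Sst* cells apart from cells with 0 *Sst* UMIs, they were compared with 615 *Sst*-zero MGE-type cells (263 and 352). These met the rule in all but *Sst*, of which they had 0 UMIs. A count of 0 UMIs does not show that a cell lacks *Sst* RNA. Of these cells, 204 and 262 held no UMI of the striatal lineage factor *Meis2*. UMIs were summed per library and group and tested by quasi-likelihood in edgeR, with the library as the block and adjusted p-values by Benjamini-Hochberg. Outside the genes of the rule, 119 of 9607 genes passed an adjusted p-value of 0.05, which is 1.24% of the genes tested. Of these, 81 were higher in confident *Sst* cells (0.843%) and 38 lower (0.396%). All 119 had the same direction in both libraries. Without the library as a block 51 genes were called, all among the 119, and DESeq2 called 61. In a summed level, fewer cells with a gene and less of it per cell cannot be told apart, and cell counts are given for part of the genes. Confident *Sst* cells were deeper than *Sst*-zero cells, at medians of 4203 and 5345 UMIs against 3593 and 3897 UMIs.

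Neuropeptides come first, as the class is named for one. *Npy* stood at 1312 and 1308 CPM in confident *Sst* cells and at 389 and 243 CPM in *Sst*-zero cells. The log2 difference was 2.13 ± 0.25 (SE; edgeR, adjusted p = 0.000154). It was detected in 22 of 39 and 31 of 44 confident *Sst* cells (56.4% and 70.5%), against 31.9% and 29.5% of *Sst*-zero cells. In cells thinned to 1500 UMIs these shares became 48.7% and 59.1% against 23.2% and 21.6%. *Npy* reached 57 UMIs in 1 cell of replicate 1 and 63 in 1 cell of replicate 2. The second of these was also the cell with the most *Sst*, at 164 UMIs. In the list of 19 neuropeptide precursors only 3 genes passed the count filter, and *Npy* was the only one called. *Cort*, the cortistatin gene related to *Sst*, was found in 1 and 2 confident *Sst* cells.

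Glutamate receptors formed the list with the most calls. Of 23 genes 21 were tested, 7 were higher, 0 were lower and 14 were not called, and the median log2 fold change was 0.66 beside -0.02 over all genes tested. *Grin3a* (chromosome 4, 49661611 to 49846023), an NMDA receptor subunit that lowers calcium entry, had 111 and 120 CPM against 19.5 and 13.6 CPM. The log2 difference was 2.85 ± 0.37 (SE; edgeR, adjusted p = 0.000214). *Grik1* (chromosome 16, 87895901 to 88290863), a kainate receptor subunit, had 695 and 720 CPM against 187 and 222 CPM. It was higher by 1.80 ± 0.22 on the log2 scale (SE; edgeR, adjusted p = 0.000163), and the log2 ratios of 1.72 and 1.62 in the single libraries lay close together. The kainate receptor subunit *Grik4* and the metabotropic receptor *Grm7* were higher by 1.71 and 1.35. *Grid1*, *Grm5* and the AMPA receptor subunit *Gria1* completed the 7, with *Grm5* at 1.02 and *Gria1* at 0.83. Of the 13 alternatives *Grm7* was called in 12, *Grm5* in 9, *Grik4* in 8 and *Gria1* in 7, and *Grik4* lost its call with thinned cells and without the top cell of each library. *Neto1*, an auxiliary subunit of kainate receptors that is on no list and was picked after its values were seen, had 950 and 903 CPM against 217 and 188 CPM, higher by 2.21 ± 0.19 (SE).

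Adhesion genes also gave calls in 1 direction. Of 26 cadherins and protocadherins 20 were tested, 4 were higher, 0 lower and 16 not called, with a median of 0.79. *Cdh9* (chromosome 15, 16728550 to 16857138) was higher by 2.91 ± 0.50 (SE; edgeR, adjusted p = 0.0042). Its level was uneven between libraries, at 133 CPM from 10 cells in replicate 1 and 33.1 CPM from 3 cells in replicate 2, against 11.8 and 7.76 CPM. *Pcdh7* and *Pcdh15* were higher by 2.16 and 1.97. *Cdh4* had 545 and 132 CPM against 119 and 102 CPM, so its increase was mostly in replicate 1, with log2 ratios of 2.01 and 0.32. *Cdh9* was called in 10 of 12 alternatives and *Cdh4* in 10 of 13, and neither with DESeq2. Among 31 synaptic organizers and vesicle genes tested, 3 were higher, *Lrrtm4* and *Rims1* among them, and 0 were lower. *Lrrtm4* was called in 12 of 13 alternatives and *Rims1* in 8. *Lrrtm4*, a postsynaptic adhesion molecule, had 756 and 397 CPM against 135 and 195 CPM.

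Migration and guidance genes moved both ways. Of 47 tested from a list of 56, 3 were higher, 2 were lower and 42 were not called, with a median of 0.01. *Sema3a*, a secreted repellent, had 289 and 211 CPM against 51.6 and 62.1 CPM, and was higher by 2.12. Its level was 407 and 232 CPM in cells with 2 to 9 *Sst* UMIs and 18.3 and 179 CPM in cells with 10 or more. With at least 3 *Sst* UMIs required it was at 1.60 and with at least 10 at 0.92, neither past the threshold. *Cntn5*, a contactin of the neuronal surface, and *Nrg3*, a neuregulin, were also higher, *Cntn5* by 2.29. *Cntn5* was called in 11 of 13 alternatives, and not with DESeq2 or without the library block. *Epha4* (chromosome 1, 77367182 to 77515107), an Eph receptor that binds both ephrin classes, had 133 and 108 CPM against 556 and 285 CPM. It was lower, at -1.73 ± 0.27 (SE; edgeR, adjusted p = 0.00157), and was detected in 20.5% of the cells in both libraries against 55.1% and 39.2%. *Plxna4*, a semaphorin co-receptor, had 156 and 120 CPM against 618 and 431 CPM, a log2 difference of -1.91 ± 0.25 (SE). Other genes of interneuron migration were not called: *Erbb4* was at -0.54, *Nrxn3* at -0.34, *Efnb2* at 0.48, *Cxcr4* at 0.21 and *Ackr3* at -0.01.

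*Reln*, which encodes the secreted glycoprotein reelin and marks part of the adult SST+ cINs, had 517 and 331 CPM against 90.5 and 127 CPM. It was found in 15 and 19 confident *Sst* cells and was higher by 1.93 ± 0.24 (SE; edgeR, adjusted p = 0.000214). Of the 24 genes of adult *Sst* subtypes and maturity, 10 were tested and 4 were higher (*Cdh9*, *Grin3a*, *Npy* and *Reln*), 0 lower. *Elfn1*, a postsynaptic organizer of SST+ cINs, was at 0.95 (edgeR, adjusted p = 0.269). *Nxph1*, a neurexophilin secreted by interneurons, was at -0.03, and *Calb1* at -0.46.

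Among 28 interneuron transcription factors, all tested, 2 were higher, 3 were lower and 23 were not called. *Satb1* was higher by 1.02 ± 0.21 (SE), from 300 and 402 CPM against 157 and 194 CPM. It was called in 9 of 13 alternatives and not with cells thinned to 1500 UMIs. *Sox6* was at 0.21 and *Maf* at 0.05 (edgeR, adjusted p = 0.80 and 0.965). *Sp9*, a factor of young ganglionic eminence neurons, was lower, at -1.80 ± 0.30 (SE), from 44.5 and 74.5 CPM against 258 and 184 CPM. *St18* was lower, at -2.68, but lost its call without the library block and with thinned cells. *Nkx2-1* was at -1.48 (edgeR, adjusted p = 0.196). *Nr2f2*, a factor of the CGE list, was higher by 1.31 and rested on 10 and 8 cells. The call was lost without the top cell of each library and without the cells of highest doublet score.

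The genes that fell furthest were nearly absent from confident *Sst* cells. *Adgrv1*, an adhesion G protein-coupled receptor, had 0 UMIs in them and 55 and 52 in *Sst*-zero cells. Against a floor of 3 UMIs over the group, it was at least 5.51-fold lower. *Foxp2*, a factor of striatal and deep-layer neurons, had 1 UMI in all against 179 and 180, a level 55.5 times higher in *Sst*-zero cells (95% counting interval 9.89 to 2197). *Ebf1*, a factor of striatal projection neurons, had 2 UMIs in all against 257 and 96, a ratio of 27.3 (7.49 to 226). Its *Sst*-zero level came from 11 and 11 cells, of which 1 held 77 of the 257 UMIs of replicate 1. *Prox1*, a factor of CGE interneurons, had 2 UMIs in all against 57 and 68, a ratio of 9.66 (2.62 to 80.6). These intervals take each UMI as independent and leave out the spread between cells and libraries. *Cadps2*, *Slc35b3* and *Gm29260* completed the group with 1 or 2 UMIs each. A single *Sst*-zero cell held 36 of the 52 *Gm29260* UMIs of replicate 1, and 1 cell held 29 of the 55 *Adgrv1* UMIs. *Gm29260* was called in 6 of 11 alternatives, *Slc35b3* in 7 of 13 and *Adgrv1* in 8 of 12. *Prox1* was called in 10 of 13 and *Cadps2* in 11 of 13. *Sox5*, a factor of deep-layer neurons picked after its values were seen, had 117 and 62.1 CPM against 443 and 332 CPM. Several marker lists of other cell types were lower too. The list of 10 markers of the lateral ganglionic eminence (LGE) and striatum, which holds *Foxp2* and *Ebf1*, summed to 1000 and 705 CPM in *Sst*-zero cells and to 478 and 240 CPM in confident *Sst* cells. *Ppp1r1b* and *Drd1* were at 0 in both groups. The excitatory list summed to 66.8 and 42.0 CPM in *Sst*-zero cells against 22.2 and 20.7 CPM in confident *Sst* cells. In the same order, the vascular list had 31.3 and 34.3 against 11.1 and 12.4 CPM, and the progenitor list 396 and 338 against 200 and 311 CPM. The microglia list went opposite ways in the libraries, at 85.4 and 21.3 against 22.2 and 24.8 CPM. The list of 7 CGE markers, which holds *Prox1* and also *Nr2f2*, went opposite ways in the libraries, at 1039 CPM against 695 CPM in replicate 1 and 203 CPM against 697 CPM in replicate 2. With all cells holding a *Meis2* UMI left out of every group, an alternative chosen after seeing the data, 117 genes were called and 95 of the 119 kept call and direction, *Foxp2*, *Prox1* and *Sox5* among them. *Adgrv1* and *Slc35b3* lost theirs, and *Ebf1* no longer passed the count filter.

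The top of the list of increases held genes with less well known roles in these cells. *Tafa1*, a secreted chemokine-like protein, was higher by 3.63 ± 0.46 (SE) but came from 4 and 6 cells, 1 of which held 15 of the 20 UMIs of replicate 1. *Zfp804b* was higher by 3.18 and came from 3 and 3 cells, 1 of which held 25 of 37 UMIs. Both lost their call when the cell with the most UMIs was left out in each library. *Prkcq*, a protein kinase C, was spread over 8 and 14 cells with at most 3 UMIs each and was higher by 3.32 ± 0.50 (SE). The uncharacterised transcripts *Gm42303* and *Gm15398* were higher by 3.08 and 2.37, and *Vwc2l* by 2.60. *Vwc2l* also lost its call without the top cells, which held 6 of 12 and 5 of 7 UMIs, and was called in 5 of 9 alternatives.

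**Figure D2:**
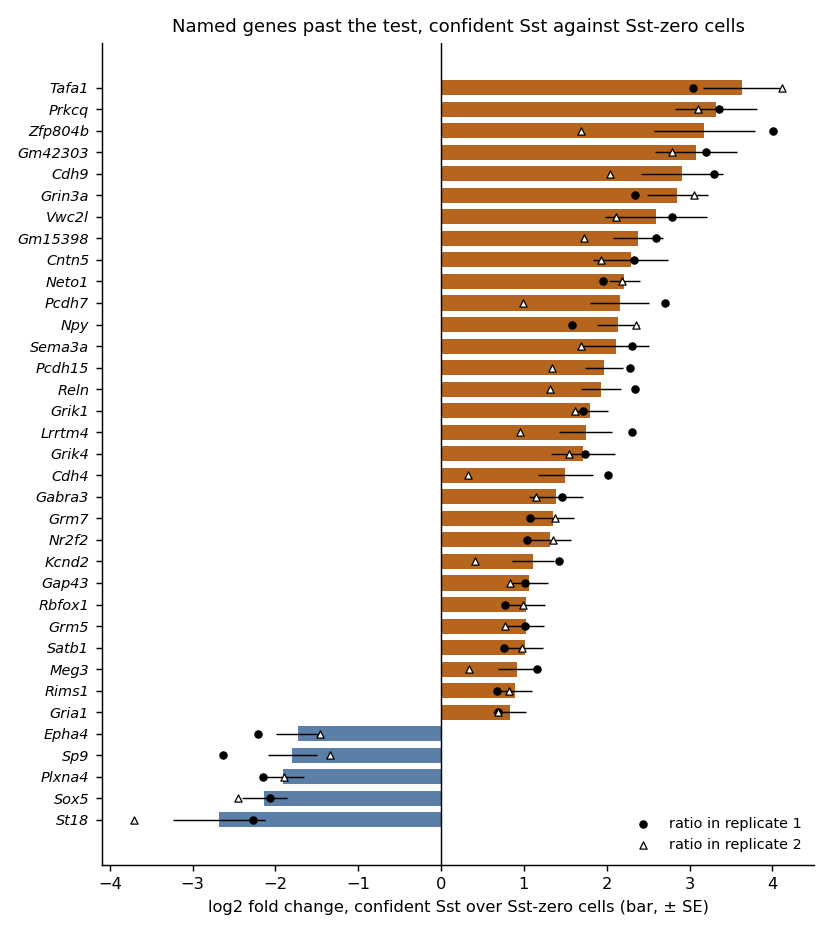
Log2 fold change (bars, ± SE of the fit over 2 libraries) of the named genes past the test between confident *Sst* and *Sst*-zero MGE-type cells, without globins and genes with 3 or fewer UMIs in confident *Sst* cells. The circle and triangle are the ratios within replicates 1 and 2, and both lie on the side of the bar for every gene shown, from *Tafa1* at 3.63 to *St18* at -2.68.

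Globins, the genes of red blood cells, also differed. All 4 tested globin genes were lower in confident *Sst* cells, with *Hbb-bs* at -1.86. In the *Sst*-zero group 2 and 6 cells had at least 1% globin UMIs, up to 44.2%, while the medians of the groups were near each other, at 0.0995% and 0.132% in confident *Sst* cells and 0.110% and 0.160% in *Sst*-zero cells. Without such cells, an alternative chosen after seeing the data, *Hbb-bs* was at -0.19 and *Hba-a2* at 0.05, none of the 4 was called, and 113 of the 119 genes kept their call and direction.

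DNA methylation genes, a subject of the study, gave 0 calls in 10 tested in this edgeR fit, with a median of 0.05. Over all genes tested 1.24% were called, so 0 calls in so few genes says little about the list. *Dnmt1* had 44.5 and 62.1 CPM in confident *Sst* cells and 46.5 and 37.5 CPM in *Sst*-zero cells, from 8 and 13 cells in the former. The log2 difference was 0.40 ± 0.36 (SE), and the libraries went opposite ways, at -0.17 and 0.68. Of 15 GABA pathway and receptor genes tested, *Gabra3* was higher by 1.38 but was called in 6 of 12 alternatives. Among 34 ion channels, *Kcnd2* was higher by 1.11 and was called in 9 of 13 alternatives. Maturation genes gave 2 increases of 22 (*Rbfox1* by 1.03 and *Meg3* by 0.91), and young neuron and progenitor genes 1 of 22, the growth cone gene *Gap43* by 1.06. *Rbfox1* was called in 11 of 13 alternatives and *Meg3* and *Gap43* in 10, and *Meg3* had unequal log2 ratios of 1.16 and 0.33 in the libraries. No gene of the somatostatin and calcium or cAMP response list was called in 13 tested, which also says little beside 1.24% over all genes.

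Levels were then followed over the number of *Sst* UMIs per cell, from 0 to 1, 2 to 9 and 10 or more, as a description. *Npy* had 389 and 243 CPM at 0, 703 and 405 CPM at 1, 1165 and 722 CPM at 2 to 9, and 1648 and 2217 CPM at 10 or more. It was ordered in this way in both libraries. *Neto1* stood at 217 and 188 CPM at 0 and 288 and 234 CPM at 1, then at 1053 and 994 CPM at 2 to 9 and 714 and 760 CPM at 10 or more. *Reln* and *Grik1* were likewise highest at 2 to 9. *Epha4* had 556 and 285 CPM at 0, 493 and 263 CPM at 1, 128 and 54.5 CPM at 2 to 9, and 147 and 190 CPM at 10 or more. For *Neto1*, *Reln* and *Epha4* the cells with 1 *Sst* UMI thus lay near those with none, while *Grik1* had 487 and 320 CPM at 1 against 187 and 222 CPM at 0, and *Grin3a* 120 and 35.5 CPM against 19.5 and 13.6 CPM.

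**Figure D3:**
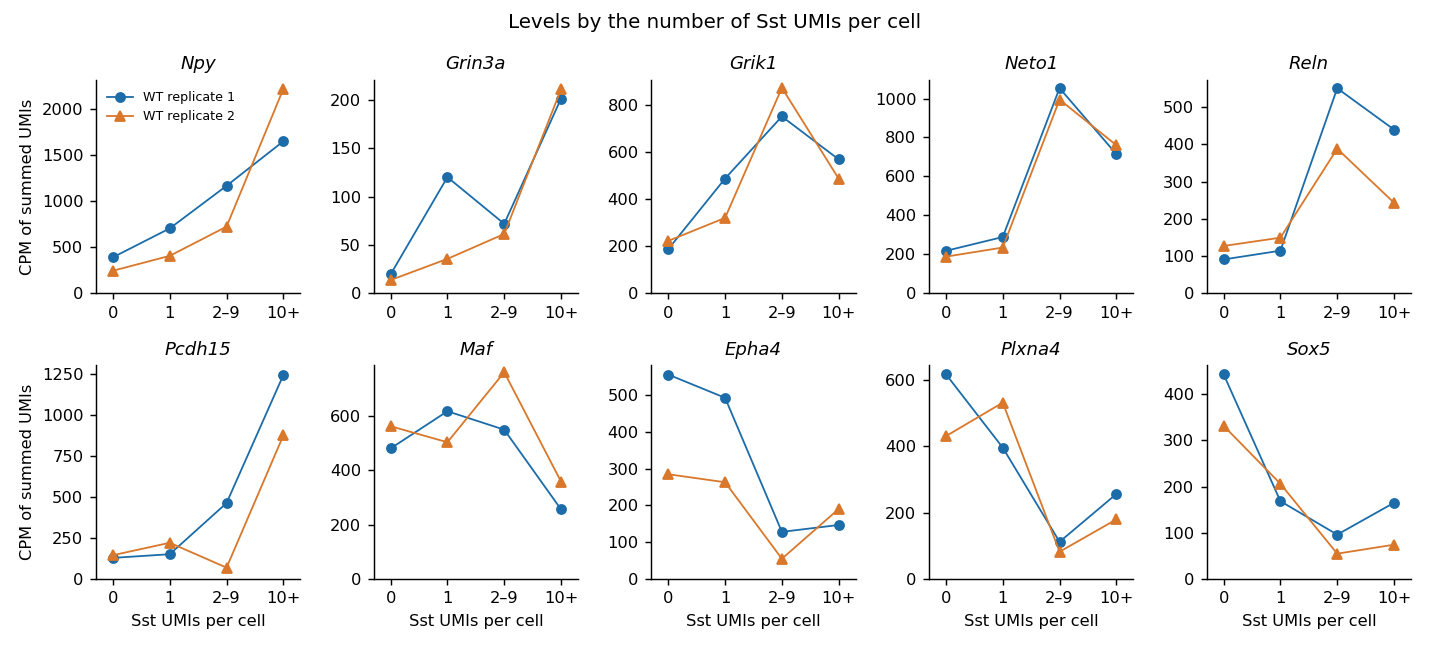
Level of 10 genes in CPM of summed UMIs (y axis, from 0) in cells that met the rest of the rule, by their number of *Sst* UMIs (x axis), for WT replicate 1 (circles) and 2 (triangles). *Npy* was highest at 10 or more *Sst* UMIs in both libraries, *Neto1* at 2 to 9, and *Epha4* was highest at 0.

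*Sst*-high cells were compared with *Sst*-low cells to describe subtypes. Of 9546 genes outside the rule, 28 were called (0.293%), 14 higher (0.147%) and 14 lower (0.147%) in *Sst*-high cells, over 26 and 57 cells. The count depended on the library block. Without it 0 genes were called, with 544 at an unadjusted p under 0.05 in that edgeR fit, while DESeq2 called 24. The count also changed with thinning: with cells thinned to 1500 UMIs 12 were called, 6 of them shared with the 28. Thinning also cut the sums tested, in *Sst*-high cells from 54600 and 94708 to 15000 and 24000 UMIs. Equal depth and fewer counts thus cannot be told apart here. With the cells of highest doublet score left out, which include 6 *Sst*-high cells, 40 were called and 25 of the 28 kept. The median over all genes was -0.14.

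*Pcdh15*, a protocadherin, had 1245 and 876 CPM in *Sst*-high cells and 463 and 68.1 CPM in *Sst*-low cells. The log2 difference was 1.99 ± 0.35 (SE; edgeR, adjusted p = 0.000344). *Cdh4* was higher by 2.18 and *Cntn5* by 1.96 with the same direction in both libraries. *Cdh4* and *Pcdh15* lost their call with thinned cells, and *Cntn5* was called in 12 of 13 alternatives. *Gap43* was higher by 1.26, and *Tox*, an HMG-box factor, by 1.31. *Gap43* was called in 8 of 13 alternatives and lost its call without the cells of highest doublet score, and *Tox* was called in 6 of 13 and lost its call without the top cells. *Tenm1*, a teneurin, was higher by 2.01 and was called in 9 of 13, not with thinned cells. *Rarb*, a retinoic acid receptor, had 21 UMIs in 7 *Sst*-high cells and 3 UMIs in *Sst*-low cells, a ratio of 12.8 (95% counting interval 3.81 to 66.8). *Tafa1* was higher by 3.36 and *Utrn* by 3.33. These 3 genes and *Zfp804b* lost their call without the top cell of each library. *Tac1*, the substance P precursor, was higher by 2.33, but 38 of its 43 UMIs in *Sst*-high cells came from 1 cell.

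Genes lower in *Sst*-high cells included factors that act in interneuron development. *Npas3*, a basic helix-loop-helix factor, had 91.6 and 359 CPM against 686 and 1403 CPM, lower at -2.23 ± 0.34 (SE; edgeR, adjusted p = 2.4e-05). *Zeb2*, which directs interneurons to the cortex, had 256 and 602 CPM against 1093 and 1600 CPM and was lower, at -1.70 ± 0.31 (SE). Both libraries went the same way for each of these genes. *Npas3* was called in 12 of 13 alternatives and *Zeb2* in 11 of 13. *Syt1*, a synaptic vesicle calcium sensor, was at -1.32, and *Gpc6*, a glypican, at -3.02, each called in 9 of 13 alternatives. *Gpc6* lost its call with thinned cells. *Ldlrad4* had 0 UMIs in *Sst*-high cells against 8 and 14, at least 4.02-fold lower against a floor of 3 UMIs over the group. *Pcdh19* had 1 and 2 UMIs in *Sst*-high cells against 28 and 16, a ratio of 8.05 (2.58 to 40.5). *Ldlrad4* was called in 6 of 12 alternatives and *Pcdh19* in 8 of 13, and both lost their call with thinned cells.

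Other genes followed here were not called between the subtypes. *Npy* was at 1.03 (edgeR, adjusted p = 0.0991), from 1648 and 2217 CPM against 1165 and 722 CPM. *Grin3a* was at 1.59 (201 and 211 CPM against 71.8 and 61.3 CPM; edgeR, adjusted p = 0.228). *Cdh9* was at -0.29, and its libraries went opposite ways. *Maf* was at -1.17 and *Nxph1* at -1.02 (edgeR, adjusted p = 0.11 and 0.0865). *Sox6* was at 0.24 and *Satb1* at -0.09. Of 21 glutamate receptors tested 0 were called, beside 0.293% of all genes tested.

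Within the 83 cells, subtype genes were combined in many ways. *Grin3a* was detected in 18 cells, 12 of which also held *Npy*. Its *Sst* counts had a median of 13.5 and 15 UMIs in the 10 and 8 cells with *Grin3a*, and of 3 and 4.5 UMIs in the 29 and 36 cells without it, at median depths of 4808.5 and 5461.5 against 4070 and 5178 UMIs. *Cdh9* was detected in 13 cells, 5 of them with *Npy*. *Reln* was detected in 34 cells, 22 of them with *Npy*. *Nos1*, which marks long-range projecting cells in the adult, was found in 3 cells of replicate 1 and in 0 of 44 cells of replicate 2. A single cell held 12 of its 15 UMIs. *Chodl* was found in 1 and 2 cells, all *Sst*-high, at 13 to 41 *Sst* UMIs. *Nos1* and *Npy* were held together by 1 cell.

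*Maf*, a factor of MGE interneurons that was examined in this way after its values had been seen, divided the cells. It was detected in 61 cells and in 22 it was not. Cells without *Maf* were deeper in replicate 1, at a median of 4936 against 3858 total UMIs, and shallower in replicate 2, at 4880 against 5475. The part of depth in the shares that follow was not tested. At least 1 UMI of *Lhx8*, *Nkx2-1*, *Nos1*, *Chodl* or *Tac1* was held by 8 of 15 cells without *Maf* in replicate 1 and by 3 of 7 in replicate 2. The same was true of 3 of 24 and 2 of 37 cells with *Maf*. The CGE marker *Adarb2* moved with this split in replicate 1, where 9 of 15 cells without *Maf* held up to 43 UMIs of it, against 3 of 24 cells with *Maf*, and 6 of the 8 cells above held *Adarb2* too. In replicate 2 it was in 0 of 7 and 1 of 37 cells. Its part in the result was not tested. *Lhx8*, which ventral telencephalic neurons such as striatal and cholinergic cells keep, was detected in 6 of 15 cells without *Maf* and 2 of 24 with it in replicate 1, and in 1 of 7 and 1 of 37 in replicate 2. *Ackr3* went the other way in both libraries, with 2 of 15 and 0 of 7 cells without *Maf* and 14 of 24 and 19 of 37 cells with it. *Mef2c* differed in replicate 1, with 6 of 15 and 19 of 24 cells, while the shares in replicate 2 were near each other, at 6 of 7 and 32 of 37. The cells without *Maf* had a median *Sst* count of 6 and 17 UMIs, and those with it of 3 and 5. *Sox6* was detected in 21 of 22 and 56 of 61.

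**Figure D4:**
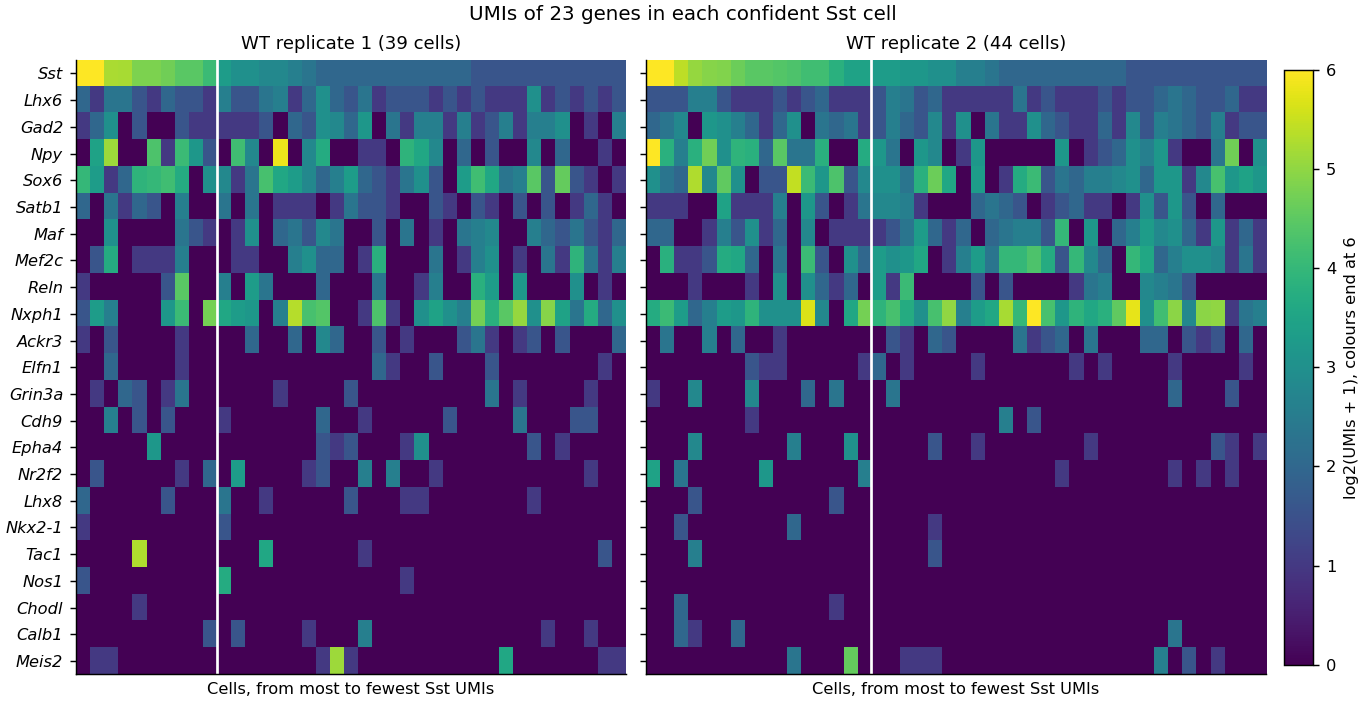
UMIs of 23 genes (rows) in each confident *Sst* cell (columns), as log2(UMIs + 1) with the colours ending at 6, for WT replicate 1 (left) and 2 (right); cells run from most to fewest *Sst* UMIs, and the white line divides *Sst*-high from *Sst*-low cells. *Sox6* and *Nxph1* are seen in most cells, *Npy* in 22 and 31, *Grin3a* in 10 and 8, and *Nos1* in 3 and 0.

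To show what *Sst* cells had in common with their MGE relatives, they were set against 198 CGE-type cells (86 and 112). These had no *Sst*, *Lhx6* or *Meis2*, a *Gad1* or *Gad2* UMI, and UMIs of at least 2 of *Prox1*, *Sp8*, *Nr2f2*, *Htr3a* and *Adarb2*. Of 9601 genes outside both rules, 405 were called (4.22%), 253 higher (2.64%) and 152 lower (1.58%) in confident *Sst* cells, and 403 of these had the same direction in both libraries. The confident *Sst* cells are the same in both comparisons, so the values are given side by side only.

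*Gria1* (chromosome 11, 57011571 to 57330244) had 2212 and 2836 CPM in confident *Sst* cells, 1218 and 1664 CPM in *Sst*-zero cells and 122 and 105 CPM in CGE-type cells. Against CGE-type cells it was higher by 4.44 ± 0.25 (SE; edgeR, adjusted p = 9.22e-10). *Npy* was higher by 5.09, *Neto1* by 5.08, *Grm5* by 4.12 and *Grik1* by 4.01, and 9 of 21 glutamate receptors were higher with 0 lower. Of 31 synaptic organizers and vesicle genes 9 were higher and 0 lower, with *Nxph1* at 3.45, *Elfn1* at 3.71 and *Syt1* at 1.22. *Elfn1* lost its call with thinned cells, and *Syt1* with at least 10 *Sst* UMIs required. *Cdh9* had 32 UMIs in confident *Sst* cells and 0 in CGE-type cells, at least 22-fold higher against a floor of 3 UMIs over the group. *Prkcq* was at least 21.3-fold higher and *Lhx8* at least 13-fold, both also against 0 UMIs. *Lhx8* lost its call with thinned cells and was uneven between libraries, with 10 and 0 UMIs in *Sst*-low and 5 and 4 in *Sst*-high cells. *Cacng3*, an AMPA receptor auxiliary subunit, had 59 UMIs against 3, a ratio of 40.5 (95% counting interval 13.2 to 202).

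Transcription factors moved both ways against CGE-type cells. *Sox6* was higher than in CGE-type cells by 2.64 ± 0.21 (SE), *Maf* by 2.30, *Satb1* by 1.88 and *Mef2c* by 1.76. *Cux2* was higher by 3.86. Of 27 interneuron transcription factors tested, 9 were higher, 5 lower and 13 not called, with a median of -0.22. The chemokine receptor *Ackr3* was higher by 3.62, while the difference to *Sst*-zero cells was -0.01. *Erbb4* was lower, at -0.86 ± 0.22 (SE; edgeR, adjusted p = 0.0255), from 5397 and 7129 CPM against 11453 and 10779 CPM, and was called in 8 of 13 alternatives. *Efnb2*, an ephrin ligand, was higher by 0.93 (edgeR, adjusted p = 0.0468) and was called in 5 of 13 alternatives. *Nr3c2*, the mineralocorticoid receptor, had 1 UMI in all against 185 and 200 in CGE-type cells, a ratio of 187 (33.3 to 7400.2). *Calb2*, which encodes calretinin, was at -3.03, and *Slit1*, a secreted repellent, at -3.31. *Dnmt1* was at 0.44 (edgeR, adjusted p = 0.724).

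**Figure D5:**
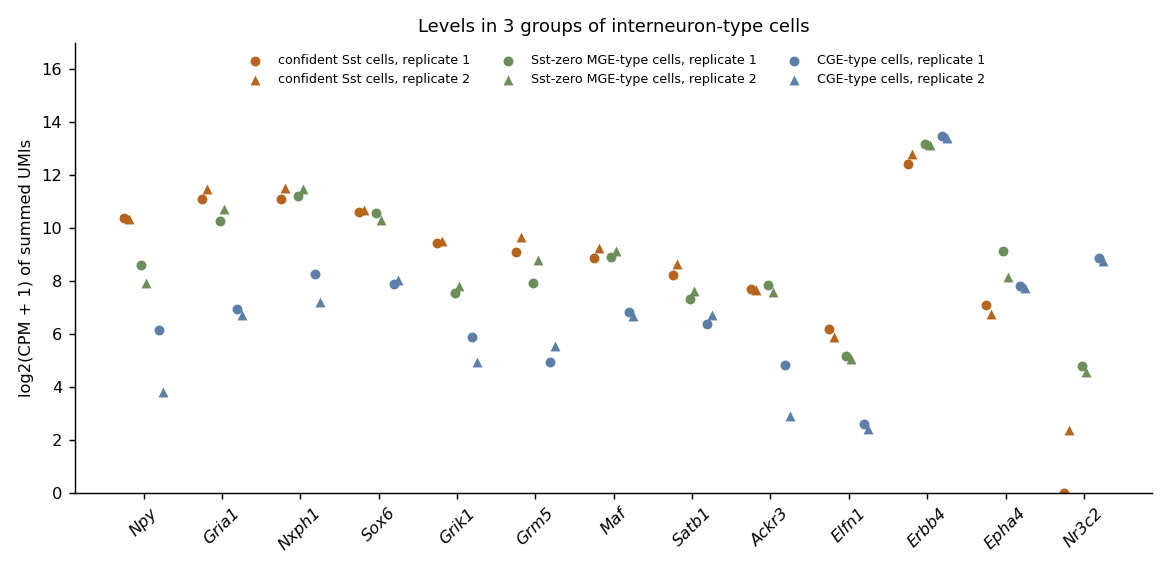
Level of 13 genes as log2(CPM + 1) of summed UMIs in confident *Sst* cells, *Sst*-zero MGE-type cells and CGE-type cells, with circles for WT replicate 1 and triangles for WT replicate 2. *Npy* and *Grik1* fall from confident *Sst* to *Sst*-zero to CGE-type cells in both libraries, *Sox6*, *Maf* and *Ackr3* are near each other in the first 2 groups, and *Nr3c2* is highest in CGE-type cells.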

How the data were processed

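The 2 libraries are 10x Genomics droplet libraries of E16.5 cerebral cortex. The deposited matrices hold raw UMI counts, which the authors did not normalize, for 32285 genes in each barcode. Per the submitters' processing notes they were made with Cell Ranger 7.0.0 on mm10, and the file headers give version 7.1.0. The barcodes were already filtered by Cell Ranger. Replicates are numbered in accession order. Whether each library holds 1 embryo is not given in the sources used here. P-values measure only how evenly the differences between cell groups held over these 2 libraries, after the library block.

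Replicate 1 held 46398156 UMIs in 9049 barcodes and replicate 2 64324236 UMIs in 13556. Counts were summed per library and cell group, since cells are not replicates, and tested with edgeR 4.0.16 in R 4.3.3 (TMM, at least 10 counts in at least 2 sums, quasi-likelihood test, library as a block). The library is a block because the sums of 1 library come from the same cell suspension. Over genes, the deviations of its groups from their means correlated at only 0.00131 to 0.145, so the data show little pairing. The calls depend on this choice: without the block 51 genes were called in place of 119, and 0 in place of 28. Confident *Sst*, 1-UMI, *Sst*-zero and CGE-type cells shared a fit, and *Sst*-low, *Sst*-high, 1-UMI and *Sst*-zero cells another. P-values were adjusted over all genes tested. The genes of the rules were tested but not counted. SE is the log2 fold change divided by the root of the F statistic. Counting intervals of ratios pool the UMIs of both libraries and leave out the spread between cells and libraries, so they are too narrow where few cells hold a gene. Doublets were scored with Scrublet in scanpy 1.11.5 and kept: removal of the highest scores, at 0.8% per 1000 barcodes, is an alternative, because the automatic threshold marked 0 and 251 cells and did not work in replicate 1.

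The text names, per comparison, the 8 genes past the threshold that differed most in each direction among those with at least 10 CPM in the higher group and the same direction in both libraries, up to 4 called genes per list, and a fixed set of interneuron genes. Genes named beyond this rule were chosen after their values were seen. The members and lists were chosen with earlier results of these data known. The tests were tested on simulated data. Some genes counted in the lists are not reported here.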

Additional observations from a re-analysis of the deposited data

How the results depend on the processing

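Between confident *Sst* and *Sst*-zero cells the count of 119 called genes moved by more than 1.5 times under 4 alternatives. DESeq2 called 61 (37 higher, 24 lower, 56 shared with the 119), and the fit with no filter on low counts called 260 (120 higher and 140 lower). The fit without the replicate block called 51, all among the 119, and the fit of only the compared groups called 278. Between *Sst*-high and *Sst*-low cells the count of 28 fell to 0 without the replicate block and to 12 both with thinned cells (1 higher, 11 lower) and with a split at the median *Sst* rate of each library, which kept 6 of the 28 each. With high cells taken from 5 *Sst* UMIs, 37 were called and 12 of the 28 kept. Against CGE-type cells the count of 405 fell to 215 with DESeq2, all among the 405. The other alternatives stayed within 1.5 times, from 104 to 166, from 23 to 40 and from 271 to 517. A like count did not mean the same genes. Against *Sst*-zero cells, thinned cells gave 115 calls, 64 of them shared with the 119, of which 105 were tested. With at least 10 *Sst* UMIs required, 156 genes were called, 76 higher and 80 lower than in *Sst*-zero cells, and 69 were shared with the 119. Without cells with 1% globin, chosen after seeing the data, *Hba-a2* changed sign against *Sst*-zero cells, at 0.047. *Foxp2*, *Grin3a*, *Npy*, *Reln*, *Grik1*, *Epha4*, *Plxna4*, *Sp9*, *Pcdh7*, *Pcdh15* and *Gm15398* kept their call in all 13 alternatives with *Sst*-zero cells.

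The share of confident *Sst* cells ranged from 0.401% to 0.609% over 5 alternatives and from 0.429% to 0.654% without 1 replicate. With the 5% mitochondrial limit the order of the libraries turned, at 0.342% in replicate 1 and 0.588% in replicate 2. The share of them with *Npy* ranged from 56.4% to 70.5% without 1 replicate. Leaving out a library left no residual degrees of freedom, so counts of calls have no such value. Depth limits the rest: a typical confident *Sst* cell had 4203 or 5345 UMIs, and genes such as *Chodl*, *Cort* and *Crhbp* were too sparse to test.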

Other observations

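Outside the confident *Sst* cells, *Sst* was also strong in other cells. At least 10 *Sst* UMIs were found in 16 cells of replicate 1 and 35 of replicate 2, of which 10 and 16 met the whole rule. Of those that did not, the lack of an *Lhx6* UMI was the only failed criterion in 2 and 5 cells and a *Neurod6* UMI in 2 and 3 cells. These 10-UMI cells were not analysed further here.

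*Meis2*, a factor of striatal and olfactory bulb lineages, was detected in 8 confident *Sst* cells of each library. With all cells holding a *Meis2* UMI left out, an alternative chosen after seeing the data, 40 genes were called between *Sst*-high and *Sst*-low cells, and 26 of the 28 kept call and direction.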
